A study of Mus musculus with 29 samples.

Results

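The 10 genes described here carry serine synthesis and the folate one-carbon cycle: Phgdh, Psat1, Psph, Shmt1, Shmt2, Mthfd1, Mthfd1l, Mthfd2, Aldh1l1 and Aldh1l2. They were taken by name, as array transcript clusters annotated with that single gene symbol, out of 30142 genes with such a cluster. The set was put together after Aldh1l2 had been noted for differences by genotype and by LY3201 in midbrain precursors, so values of those comparisons are given as a description without a test. All 10 genes exceeded the median of all clusters in all 29 arrays and were among the 22063 genes tested.

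RNA was measured on 29 Clariom D arrays of mouse cells at 4 stages: undifferentiated embryonic stem cells in LIF medium (mESC), neural precursor cells expanded with FGFb and laminin (NPC), midbrain neural precursors kept with FGFb, FGF8b, Shh and ascorbic acid (mDPC), and cells taken on towards midbrain neurons with ascorbic acid but without these growth factors (MN). At each stage, cells labelled BERKO, which by that label lack ERβ, the estrogen receptor encoded by Esr2, stood against wild-type cells (WT). Cells with LY3201 received this selective ERβ agonist at 0.5 nM, for 4 days in NPC and mDPC, and cells without it, called untreated here, received DMSO in NPC and mDPC. How long MN cells were treated is not in the labels. Of the 14 groups, each had 2 arrays, except the untreated MN group labelled BERKO with 3, and mESC had no LY3201 group. The deposited design calls the arrays of a group biological replicates, but a shared number in the titles joins both mESC arrays labelled BERKO, and another joins both LY3201 arrays of NPC WT, so each pair could be 1 culture. The labels do not say from how many clones either line came. Values are log2 signals, and differences are between group means on that scale.

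Esr2 ranged from 3.8 to 4.46 over the 15 BERKO-labelled arrays, against 3.21 to 3.47 over the 14 WT arrays. Its direction therefore opposed the label, at levels near the medians of the negative controls (3.747 to 4.245). BERKO and WT therefore name labels throughout. The upper reference for background is the 95th percentile of each array's negative controls, which ran from 6.632 to 7.661. Where a group lies under it, a printed difference is the fitted one, with 1 or both of its levels not clearly told from background, and its size is uncertain to that extent. None of the 6 dopaminergic markers exceeded it in any array (Th, Slc6a3, Pitx3, Nr4a2, Lmx1a and Foxa2), so MN names a stage and not a dopaminergic identity. In these bulk samples, fewer cells of a type and less RNA per cell cannot be told apart.

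Cells make serine from a glycolytic intermediate through phosphoglycerate dehydrogenase (Phgdh), phosphoserine aminotransferase (Psat1) and phosphoserine phosphatase (Psph). Serine hydroxymethyltransferases of cytosol (Shmt1) and mitochondria (Shmt2) then move a carbon unit from serine to tetrahydrofolate, which leaves glycine. In mitochondria, Mthfd2 oxidises the folate-bound unit and Mthfd1l releases it as formate, and the cytosolic enzyme Mthfd1 takes formate up again for purine, thymidylate and methionine synthesis. The dehydrogenases Aldh1l1 (cytosol) and Aldh1l2 (mitochondria) oxidise the formyl unit to carbon dioxide and yield NADPH. In brain, Phgdh is known as abundant in radial glia and astrocytes, Aldh1l1 is a widely used astrocyte marker, and the mitochondrial branch is known to be strong in embryonic and dividing cells and to contain targets of the transcription factor Atf4.

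Promoter sequence was at hand for 9 of the 10 genes (RefSeq, GRCm38.p6), and Aldh1l2 had no entry. The 250 bases upstream of the annotated start are shown for 4 genes that stand for the patterns found: Phgdh of serine synthesis, Shmt2 and Mthfd2 of the mitochondrial branch, and Aldh1l1. All are read 5′ to 3′ along the gene's own strand, with capitals for CCAAT or its complement ATTGG.

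Phgdh (chr3:98339970-98340219, minus strand): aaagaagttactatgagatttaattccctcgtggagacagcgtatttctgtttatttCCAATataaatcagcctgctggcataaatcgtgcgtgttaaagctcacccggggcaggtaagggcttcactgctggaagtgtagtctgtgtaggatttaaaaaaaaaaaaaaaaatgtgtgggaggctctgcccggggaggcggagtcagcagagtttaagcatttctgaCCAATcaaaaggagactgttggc

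Shmt2 (chr10:127522445-127522694, minus strand): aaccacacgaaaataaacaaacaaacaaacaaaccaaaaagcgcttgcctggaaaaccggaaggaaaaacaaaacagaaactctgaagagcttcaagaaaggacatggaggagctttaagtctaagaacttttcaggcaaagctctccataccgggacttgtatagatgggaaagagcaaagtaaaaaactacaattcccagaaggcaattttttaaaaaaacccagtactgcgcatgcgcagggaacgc

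Mthfd2 (chr6:83317605-83317854, minus strand): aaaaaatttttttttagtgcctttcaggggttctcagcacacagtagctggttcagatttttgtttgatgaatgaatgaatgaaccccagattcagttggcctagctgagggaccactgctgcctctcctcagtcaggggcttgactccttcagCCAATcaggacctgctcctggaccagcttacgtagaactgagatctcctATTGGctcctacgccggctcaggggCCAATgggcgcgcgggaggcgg

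Aldh1l1 (chr6:90550543-90550792, plus strand): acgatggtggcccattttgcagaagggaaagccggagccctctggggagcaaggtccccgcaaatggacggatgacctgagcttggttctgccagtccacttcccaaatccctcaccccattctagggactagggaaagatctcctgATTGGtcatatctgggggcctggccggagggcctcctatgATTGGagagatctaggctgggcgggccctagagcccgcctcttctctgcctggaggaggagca

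CCAAT, searched on both strands, occurred in this window in 7 of the 9 genes, against 33.9% of 32851 mouse promoters. The count is of genes with a match in any window, while the share is of promoters. Psat1 had a further promoter entry, whose window held no match. This motif was added after the sequences had been seen. Phgdh held it 193 and 23 bases before its start and Mthfd2 96, 47 and 22 bases before, while the windows of Shmt2 and Mthfd1l held none. The core of the C/EBP-ATF response element, TGATGNAA, occurred in 0 of the 9 genes (3.45% of all promoters), as did the E-box CACGTG (6.02%). A match of letters is no measured site, and windows without a match say nothing on more distant sequence.

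Over the whole series the set fell into 3 patterns of level. Shmt1, Mthfd1, Mthfd1l, Mthfd2 and Shmt2 were highest in mESC. Phgdh, Psat1 and Psph peaked in NPC or mDPC, and Aldh1l1 and Aldh1l2 were lowest in mESC, apart from Aldh1l1 in WT MN, which reached a like level. Phgdh, Psat1, Shmt2 and Mthfd1 exceeded the negative-control percentile in all 29 arrays. Shmt1, Mthfd1l and Mthfd2 did so in the 4 mESC arrays alone, Aldh1l1 in 8 arrays, all labelled BERKO, and Aldh1l2 in 19. Psph, the last enzyme of serine synthesis, stayed between 4.99 and 6.18 and exceeded it in none, so its differences are between levels not clearly told from background.

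**Figure D1:**
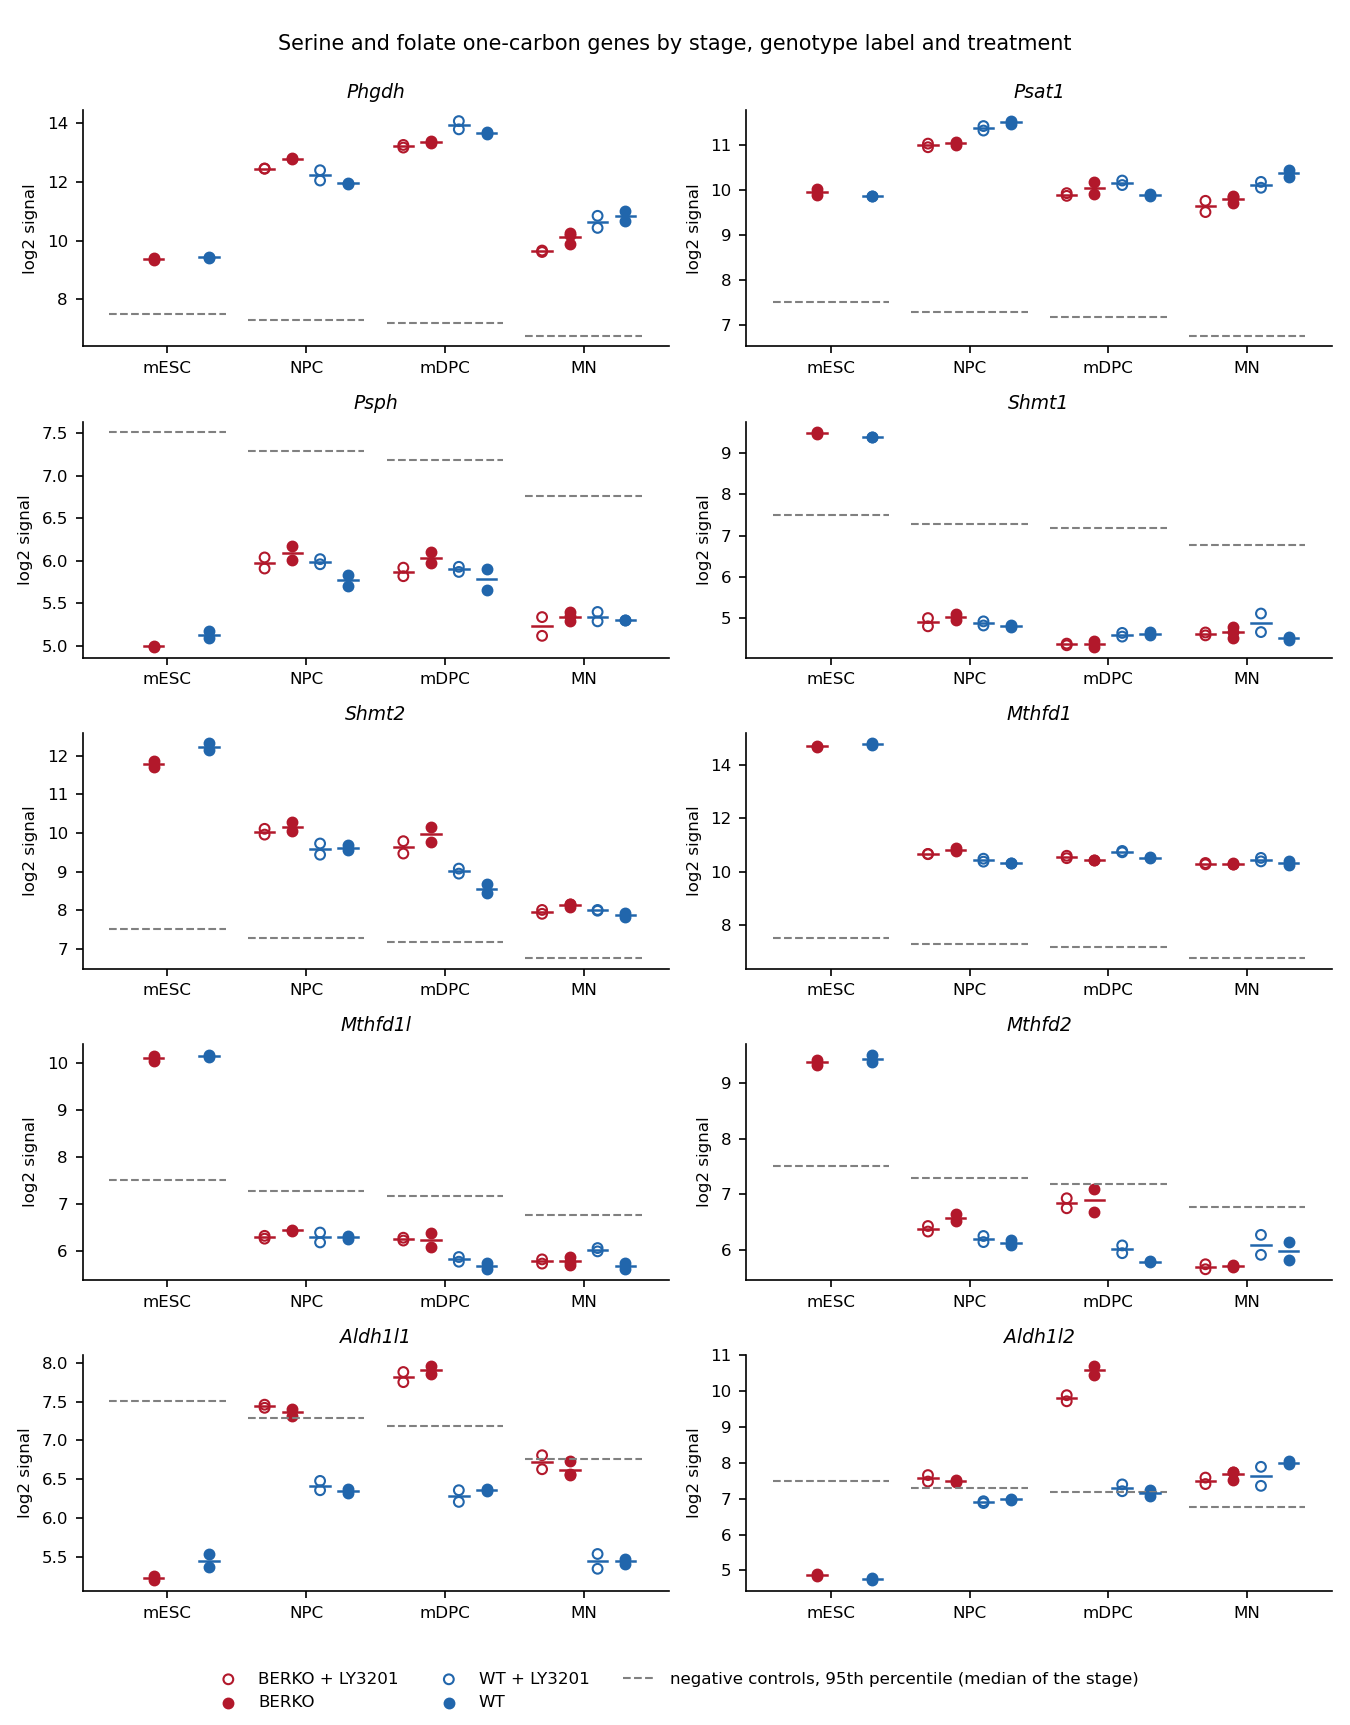
Log2 signal of the 10 genes (vertical axes, each on its own scale) by stage (horizontal axes), with 1 point per array and a bar at each group mean; red points are arrays labelled BERKO, blue points WT, open points LY3201, and dashed lines mark the 95th percentile of the negative controls (median of the stage's arrays). Shmt1, Mthfd1, Mthfd1l and Mthfd2 stand high in mESC, and Aldh1l2 stands at 9.72 to 10.71 in the 4 mDPC arrays labelled BERKO.

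The first step, from mESC to NPC in untreated cells, compared neural precursors with pluripotent cells. All 10 genes passed the test in each genotype, 5 higher and 5 lower, where 63.5% of all genes tested passed in arrays labelled BERKO (27.7% higher and 35.9% lower) and 62.9% in WT (27.9% higher and 35% lower). The 5 lower genes were those that load the carbon unit on folate and move it (Shmt1, Shmt2, Mthfd1, Mthfd1l and Mthfd2), and the 5 higher genes were the serine synthesis genes and the formyl dehydrogenases. The median change of the 10 genes was -0.27 in arrays labelled BERKO and -0.99 in WT, against -0.098 and -0.038 over all genes tested. Quantile normalization moved the median over all genes in arrays labelled BERKO by 0.11 to 0.01, and all 10 changes passed in the same direction under it.

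Phgdh, the entry enzyme of serine synthesis, was at 12.8 and 12.77 in NPC labelled BERKO, against 9.4 and 9.34 in mESC labelled BERKO. In WT it was at 11.95 and 11.93 in NPC, against 9.41 and 9.44 in mESC. Every NPC array lay above every mESC array, and the rise was 3.41 ± 0.15 in arrays labelled BERKO and 2.52 ± 0.15 in WT (SE; limma with Benjamini-Hochberg adjustment, adjusted p = 6.26e-14 and 7.73e-12). Psat1, the transaminase that follows, rose by 1.08 ± 0.1 in arrays labelled BERKO and by 1.64 ± 0.1 in WT. Psph rose by 1.1 ± 0.1 and 0.64 ± 0.1, both between levels under the negative-control percentile.

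Mthfd1, the cytosolic enzyme that brings formate back to folate, was at 10.75 and 10.87 in NPC labelled BERKO, against 14.71 and 14.67 in mESC labelled BERKO. In WT it was at 10.33 in both NPC arrays, against 14.75 and 14.79 in mESC. It fell (-3.88 ± 0.07 in arrays labelled BERKO and -4.44 ± 0.07 in WT, limma adjusted p = 7.62e-20 and 1.08e-20), and after this step it stayed between 10.24 and 10.87 in all 25 later arrays. Shmt1, the cytosolic hydroxymethyltransferase, lay between 4.3 and 5.11 from NPC on, under the negative-control percentile, against 9.39 to 9.51 in mESC. It fell (-4.47 ± 0.11 in arrays labelled BERKO and -4.59 ± 0.11 in WT).

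Mthfd1l, Mthfd2 and Shmt2 of the mitochondrial branch went down together. Mthfd2l, of the folate list given below, had higher means in NPC (8.82, against 6.26 in mESC, in arrays labelled BERKO). In WT its means were 8.53 in NPC, against 6.4 in mESC, and both mESC means lay under the negative-control percentile. Mthfd1l, the mitochondrial formate-releasing enzyme, lay between 5.62 and 6.46 from NPC on, against 10.05 to 10.18 in mESC, all later arrays under the percentile, and fell (-3.65 ± 0.1 in arrays labelled BERKO and -3.86 ± 0.1 in WT). Mthfd2 was at 6.64 and 6.52 in NPC labelled BERKO, against 9.43 and 9.33 in mESC labelled BERKO, and at 6.09 and 6.17 in NPC WT, against 9.38 and 9.52 in mESC WT. Its change was -2.8 ± 0.13 in arrays labelled BERKO and -3.32 ± 0.13 in WT, again to levels under the percentile. Shmt2, the mitochondrial hydroxymethyltransferase, stayed measurable: it was at 10.06 and 10.28 in NPC labelled BERKO, against 11.7 and 11.87 in mESC labelled BERKO, and at 9.55 and 9.68 in NPC WT, against 12.15 and 12.32 in mESC WT. The fall of Shmt2 was smaller in arrays labelled BERKO (-1.62 ± 0.13) than in WT (-2.62 ± 0.13), with a difference of 1.01 ± 0.19 between the steps (limma adjusted p = 0.00163).

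The formyl dehydrogenases went the other way. Aldh1l2 was at 7.47 and 7.52 in NPC labelled BERKO, against 4.89 and 4.84 in mESC labelled BERKO, and at 7.0 and 6.97 in NPC WT, against 4.72 and 4.8 in mESC WT. It rose by 2.63 ± 0.14 and 2.23 ± 0.14 (limma adjusted p = 1.19e-12 and 1.61e-11) and exceeded the negative-control percentile in NPC labelled BERKO but not in NPC WT or in any mESC array. Aldh1l1 rose by 2.13 ± 0.09 in arrays labelled BERKO and by 0.9 ± 0.09 in WT, from mESC levels under the percentile in both and to NPC levels under it in WT. The steps of the 2 genotypes differed for 6 of the 10 genes (9.6% of all genes tested, 6.35% upwards and 3.25% downwards, or 1401 and 718 genes, and 1049 and 938 after quantile normalization), upwards in arrays labelled BERKO for Phgdh, Psph, Shmt2, Mthfd1 and Aldh1l1 and downwards for Psat1. Those of Phgdh, Psat1 and Psph did not pass under every alternative, with adjusted p up to 0.0769, 0.0655 and 0.164. At this step all 7 pluripotency markers fell in both genotypes, and 11 of 12 astrocyte markers rose in both. Of 13 proliferation genes 10 fell in arrays labelled BERKO and 12 in WT. The mean of Mki67 went up, from 13.4 to 16.02 in arrays labelled BERKO and from 13.51 to 15.01 in WT, and that of Ccna2 from 12.35 to 12.87 in arrays labelled BERKO.

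**Figure D2:**
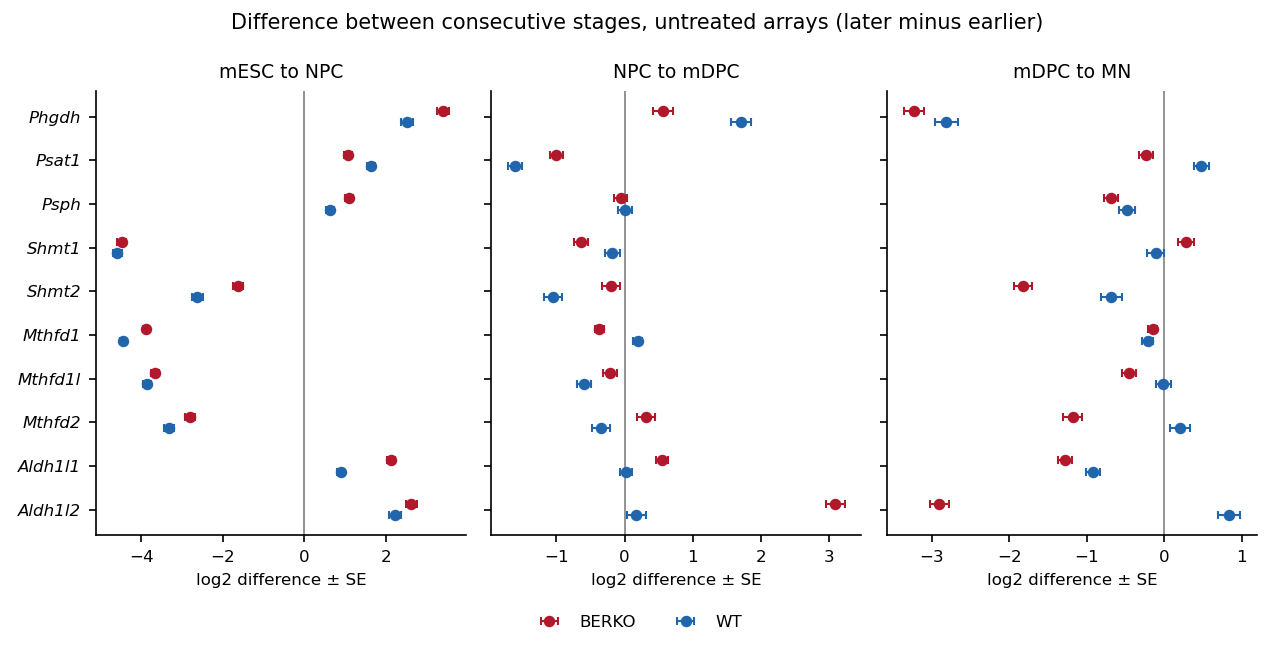
Log2 difference between consecutive stages (horizontal axes, later minus earlier) for each gene, as point and SE, in untreated arrays labelled BERKO (red) and WT (blue). In the first panel Shmt1, Shmt2, Mthfd1, Mthfd1l and Mthfd2 lie left of 0 and the other 5 genes right of it, and in the other panels Aldh1l2 moves by 3.09 and -2.9 in arrays labelled BERKO.

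From NPC to mDPC, the serine synthesis genes parted: Phgdh went up and Psat1 down in both genotypes. Phgdh was at 13.39 and 13.3 in mDPC labelled BERKO, against 12.8 and 12.77 in NPC labelled BERKO, and at 13.69 and 13.61 in mDPC WT, against 11.95 and 11.93 in NPC WT. It rose by 0.56 ± 0.15 in arrays labelled BERKO and by 1.71 ± 0.15 in WT (limma adjusted p = 0.00493 and 2.71e-08). Psat1, next in the same pathway, fell (-1.0 ± 0.1 in arrays labelled BERKO and -1.61 ± 0.1 in WT, adjusted p = 1.36e-07 and 2.5e-10), so that the mDPC arrays (9.86 to 10.17) lay below all untreated NPC arrays (11.0 to 11.53). Psph did not pass in either genotype (-0.06 ± 0.1 and 0.01 ± 0.1).

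Of the 9 genes other than Aldh1l2, 5 passed in each genotype, 2 higher and 3 lower. In WT the second higher gene was Mthfd1 (0.19 ± 0.07), which did not pass in 6 alternatives (adjusted p up to 0.198), among them each of the 4 without 1 array, so that 4 genes passed there. Of all genes tested, 35.4% passed in arrays labelled BERKO (16.5% higher and 18.9% lower) and 30.4% in WT (14.6% higher and 15.8% lower). Shmt2 fell in WT (-1.05 ± 0.13, adjusted p = 4.94e-06), while in arrays labelled BERKO its change of -0.2 ± 0.13 did not pass. Mthfd1l fell in WT (-0.6 ± 0.1), and its change in arrays labelled BERKO was -0.21 ± 0.1 without passing. Aldh1l1 rose in arrays labelled BERKO by 0.55 ± 0.09 (adjusted p = 9.37e-05), with 0.02 ± 0.09 in WT. The steps differed between genotypes for 6 of these 9 genes (8.68% of all genes tested, 3.68% upwards and 4.99% downwards): Shmt2 by 0.85 ± 0.19, Mthfd2 by 0.66 ± 0.19, Psat1 by 0.61 ± 0.14 and Aldh1l1 by 0.53 ± 0.13 upwards, Phgdh by -1.15 ± 0.21 and Mthfd1 by -0.56 ± 0.1 downwards. Of these, Phgdh and Mthfd1 passed in every alternative, and the other 4 had adjusted p up to 0.0657, 0.0633, 0.193 and 0.0636 (Psat1, Shmt2, Mthfd2 and Aldh1l1). These differences contain the mDPC genotype difference on which the set was chosen. All 13 proliferation genes fell at this step in both genotypes, to array means of 5.52 to 5.58 in mDPC labelled BERKO, against 11.1 to 11.22 in NPC labelled BERKO, and of 6.67 to 6.68 in mDPC WT, against 10.27 to 10.53 in NPC WT. Astrocyte markers rose in 9 of 12 genes with 2 lower in arrays labelled BERKO and in 8 with 2 lower in WT, and 4 of 8 mesenchymal genes fell in arrays labelled BERKO and 7 in WT.

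From mDPC to MN, more of the set went down than up. In untreated arrays labelled BERKO, 7 of the 9 genes other than Aldh1l2 fell and Shmt1 rose, where 50.9% of all genes tested passed (20.1% higher and 30.8% lower). In WT, 5 fell and Psat1 rose, where 42% passed (18% higher and 24% lower). Of these calls 3 did not pass in every alternative: in arrays labelled BERKO the rise of Shmt1 (adjusted p up to 0.223, between levels under the percentile) and the fall of Psat1 (-0.23 with all arrays, and -0.1 without mDPC BERKO array 1, adjusted p = 0.48), and in WT the fall of Mthfd1 (adjusted p up to 0.219). Phgdh was at 10.27, 9.88 and 10.19 in MN labelled BERKO, against 13.39 and 13.3 in mDPC labelled BERKO, and at 11.02 and 10.67 in MN WT, against 13.69 and 13.61 in mDPC WT. The MN and mDPC arrays did not overlap, and the change was -3.23 ± 0.13 in arrays labelled BERKO and -2.81 ± 0.15 in WT (limma adjusted p = 1.36e-13 and 8.97e-12). Shmt2 fell (-1.82 ± 0.12 in arrays labelled BERKO and -0.68 ± 0.13 in WT), and so did Aldh1l1 (-1.28 ± 0.09 and -0.92 ± 0.09). The steps differed between genotypes for 4 of the 9 genes (12.5% of all genes tested, 7.31% upwards and 5.15% downwards), all downwards in arrays labelled BERKO: Mthfd2 (-1.38 ± 0.18), Shmt2 (-1.14 ± 0.18), Psat1 (-0.71 ± 0.14) and Mthfd1l (-0.44 ± 0.13). That of Mthfd1l did not pass in 6 alternatives (adjusted p up to 0.208) and was -0.29 without mDPC BERKO array 1. Consecutive steps share the mDPC arrays with opposite sign, so a difference in one and its opposite in the next are partly the same measurement, and this difference too contains the mDPC genotype difference. Markers of other cells moved at this step: 5 of 6 oligodendrocyte genes rose in both genotypes, with 1 lower in arrays labelled BERKO, as did all 4 ependymal genes. Of 13 proliferation genes, 13 rose in arrays labelled BERKO and 12 in WT. Mesenchymal genes rose in 2 of 8 with 3 lower in arrays labelled BERKO and in 7 in WT, and neuronal genes in 3 of 10 with 3 lower in arrays labelled BERKO and in 6 with 3 lower in WT. The part of these markers in the steps of the 10 genes was not tested.

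Genotype was compared first in the undifferentiated cells. In mESC, 0 of the 10 genes passed (4.21% of all genes tested did, 1.68% higher and 2.53% lower). At an unadjusted p under 0.05 in limma there were 2 of the 10, and 3814 of the 22063 genes tested. Shmt2 had the largest difference of the set, 11.7 and 11.87 in mESC labelled BERKO, against 12.15 and 12.32 in mESC WT, which is -0.45 ± 0.13 (adjusted p = 0.066). The 2 groups did not overlap for 8 of the 10 genes, Shmt2 among them, although 0 passed, so separation of 2 arrays from 2 carries little weight. With the stricter filter on low values the adjusted p of Shmt2 was 0.0484, and after quantile normalization 0.0391. The other 9 differences lay between -0.22 (Aldh1l1) and 0.1 (Aldh1l2). After quantile normalization Mthfd1 passed too, at -0.34 ± 0.08 (adjusted p = 0.0269), in place of -0.08 ± 0.07.

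In NPC, 7 of the 10 genes were higher in arrays labelled BERKO and 1 was lower, where 15.7% of all genes tested passed (10.6% higher and 5.08% lower, or 2334 and 1120 genes, and 1326 and 1702 after quantile normalization). The median difference of the 10 genes was 0.46, against 0.029 over all genes tested. Aldh1l1 was at 7.31 and 7.41 in NPC labelled BERKO, against 6.38 and 6.32 in NPC WT, and the difference was 1.01 ± 0.09 (limma adjusted p = 3.43e-07). These groups were wholly apart, as they were for all 10 genes, although 1 of the 4 arrays exceeded the negative-control percentile for Aldh1l1. Phgdh was at 12.8 and 12.77 against 11.95 and 11.93, a difference of 0.84 ± 0.15 (adjusted p = 0.000441), and Mthfd1 at 10.75 and 10.87 against 10.33 in both WT arrays, a difference of 0.47 ± 0.07 (adjusted p = 7.08e-05).

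Psat1 was the 1 gene lower in NPC labelled BERKO, at 11.0 and 11.07, against 11.47 and 11.53 in WT (-0.46 ± 0.1, adjusted p = 0.00299). Within the serine synthesis pathway, its first enzyme was thus higher and its second lower in the same cells. Shmt2 (0.55 ± 0.13), Aldh1l2 (0.5 ± 0.14), Mthfd2 (0.45 ± 0.13) and Psph (0.32 ± 0.1) were higher too, but these 4 calls did not pass in every alternative (adjusted p up to 0.114, 0.1, 0.16 and 0.271). The count of 8 was 4 without WT array 1 or without BERKO array 2, 5 without WT array 2, and 5 after quantile normalization. Shmt1 (0.21 ± 0.11) and Mthfd1l (0.15 ± 0.1) did not pass.

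Among NPC arrays with LY3201, the same comparison gave 4 higher genes and 1 lower, where 10.4% of all genes tested passed (4.56% higher and 5.81% lower). Aldh1l1 was at 7.46 and 7.42 in arrays labelled BERKO, against 6.48 and 6.36 in WT, and differed by 1.02 ± 0.09 (adjusted p = 3.05e-07). It was the 1 gene of these 5 that passed in every alternative. Aldh1l2 differed by 0.67 ± 0.14, Shmt2 by 0.45 ± 0.13, Mthfd1 by 0.23 ± 0.07 and Psat1 by -0.38 ± 0.1 (adjusted p = 0.00256, 0.0382, 0.0391 and 0.0172). Phgdh differed by 0.23 ± 0.15, without passing (adjusted p = 0.435). The count of 5 was 1 without BERKO array 2, 2 without BERKO array 1 and 3 without WT array 2 of these groups, and 2 with the arrays that share a title number averaged.

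**Figure D3:**
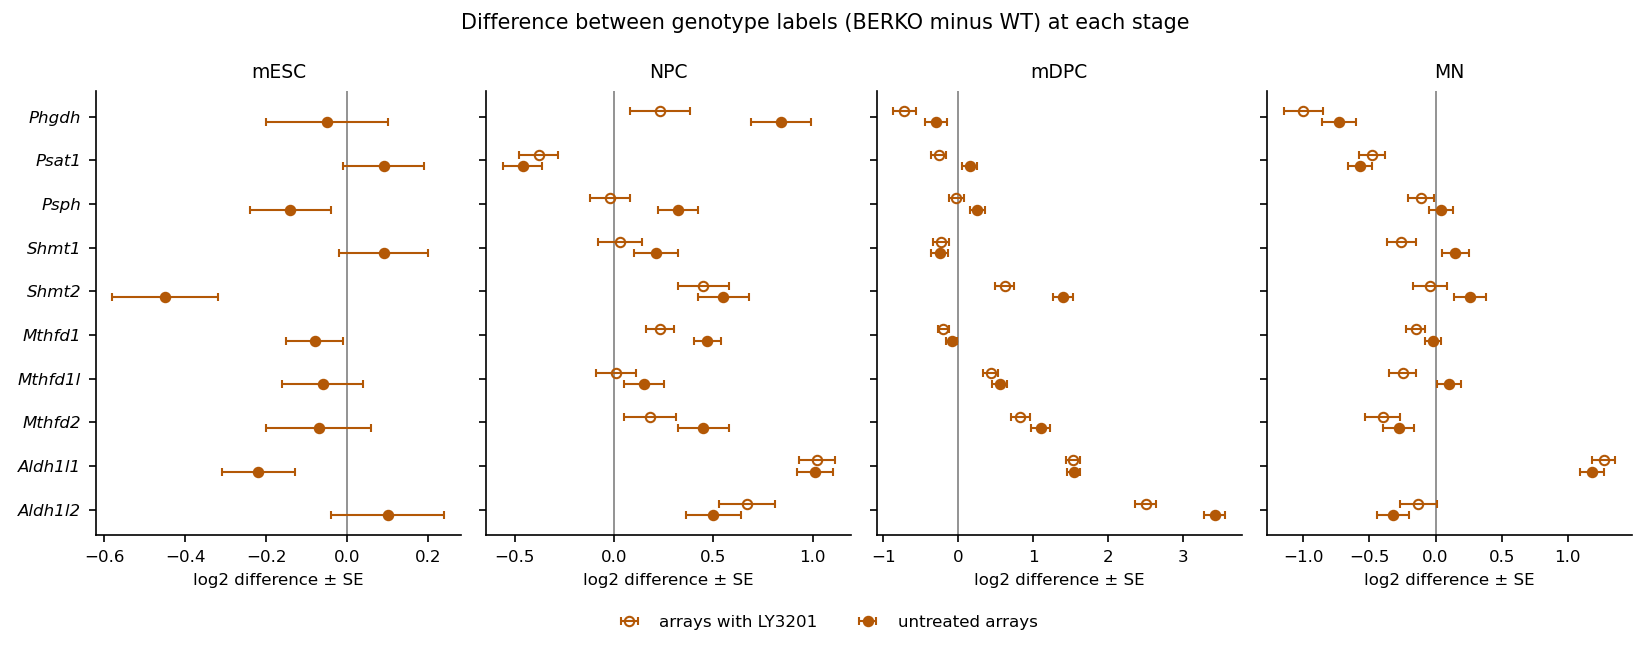
Log2 difference between arrays labelled BERKO and WT (horizontal axes, BERKO minus WT, each panel on its own scale) for each gene at each stage, as point and SE, with filled points for untreated and open points for LY3201 arrays. Aldh1l1 lies right of 0 in NPC, mDPC and MN with and without LY3201, and Phgdh lies at 0.84 in untreated NPC and at -0.73 in untreated MN.

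The mDPC stage is where Aldh1l2 was noted, so its genotype values are listed without a test. Aldh1l2 was at 10.71 and 10.46 in untreated mDPC labelled BERKO, against 7.25 and 7.07 in WT, a difference of 3.42 ± 0.14. With LY3201 it was at 9.89 and 9.72 in arrays labelled BERKO, against 7.21 and 7.4 in WT, a difference of 2.5 ± 0.14. In no other group did an array exceed 8.04. Aldh1l1, the cytosolic counterpart, differed by 1.54 ± 0.09 untreated and by 1.53 ± 0.09 with LY3201.

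Of the mitochondrial branch, Shmt2, Mthfd2 and Mthfd1l stood higher in mDPC labelled BERKO as well. This did not hold for every related gene: of the folate list, untreated, Mthfd2l differed by -0.09 ± 0.11 and Dld by 0.47 ± 0.1. Shmt2 was at 10.15 and 9.78, against 8.68 and 8.45 in WT (1.4 ± 0.13), and at 9.79 and 9.47 with LY3201, against 9.08 and 8.95 (0.62 ± 0.13). Mthfd2 was at 7.09 and 6.69, against 5.79 and 5.78 (1.1 ± 0.13), and Mthfd1l at 6.4 and 6.09, against 5.76 and 5.63 (0.55 ± 0.1), all under the negative-control percentile. Of the cytosolic enzymes, Shmt1 differed by -0.25 ± 0.11 and Mthfd1 by -0.09 ± 0.07. Phgdh differed by -0.3 ± 0.15 untreated and by -0.72 ± 0.15 with LY3201. Of the 10 genes, 5 were past the threshold untreated, all higher, where 13.8% of all genes tested were (8.51% higher and 5.32% lower, or 1877 and 1174 genes, and 1445 and 1709 after quantile normalization). With LY3201, 5 were higher and 1 lower, where 15.3% were past it (7.23% higher and 8.1% lower). Nothing is read from these counts, since the set was chosen on these arrays.

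In MN, 3 genes passed between untreated arrays, 1 higher and 2 lower in those labelled BERKO, where 20.8% of all genes tested passed (13.5% higher and 7.31% lower, or 2972 and 1612 genes, and 2370 and 2034 after quantile normalization). Aldh1l1 was at 6.56, 6.74 and 6.57 in MN labelled BERKO, against 5.48 and 5.41 in WT, a difference of 1.18 ± 0.09 (limma adjusted p = 4.31e-09) between levels under the percentile in all 5 arrays. Phgdh was at 10.27, 9.88 and 10.19, against 11.02 and 10.67 (-0.73 ± 0.13, adjusted p = 0.000479), a sign opposite to that in NPC, and this contrast between the stages was not tested. Psat1 was at 9.86, 9.85 and 9.71, against 10.45 and 10.29 (-0.57 ± 0.09, adjusted p = 0.000124). The groups did not overlap for 6 of the 10 genes, these 3 among them, and the 3 calls passed in every alternative.

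Aldh1l2, the gene far apart in mDPC, had -0.32 ± 0.12 in MN and did not pass (adjusted p = 0.0767). Shmt2 had 0.26 ± 0.12 and Mthfd2 -0.28 ± 0.12. After quantile normalization Aldh1l2 (-0.45 ± 0.12, adjusted p = 0.0105) and Mthfd2 (-0.36 ± 0.11, adjusted p = 0.0296) passed, which made 5 genes. With LY3201, MN arrays differed for 4 genes, where 19.6% of all genes tested passed (9.01% higher and 10.6% lower): Aldh1l1 by 1.27 ± 0.09, Phgdh by -1.0 ± 0.15, Psat1 by -0.48 ± 0.1 and Mthfd2 by -0.4 ± 0.13 (adjusted p = 8.33e-09, 6.32e-05, 0.00186 and 0.0405). In a fit to these 2 groups alone, Psat1 and Mthfd2 did not pass. Mthfd2 did not pass in 5 other alternatives either, and was -0.22 without WT array 2 with LY3201 (adjusted p = 0.42).

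Markers of other cell types and of division moved with genotype at these stages. Of all genes tested, 10.6% were higher and 5.08% lower in NPC labelled BERKO, 8.51% and 5.32% in mDPC, and 13.5% and 7.31% in MN. In NPC, 12 of 13 proliferation genes were higher in arrays labelled BERKO, with mean levels of 11.1 to 11.22 per array, against 10.27 to 10.53 in WT, and 6 of 8 mesenchymal genes were lower, at 5.03 to 5.16 against 7.04 to 7.05. In untreated mDPC, 12 of 13 proliferation genes were lower, at 5.52 to 5.58 against 6.67 to 6.68. Of 12 astrocyte genes 6 were higher with 1 lower, at 12.47 to 12.52 against 12.15 to 12.2, while Gfap had a mean of 13.3 against 16.53 in WT. There 3 of 6 oligodendrocyte genes were higher, at 4.22 to 4.34 against 3.68 to 3.7, with all 6 under the negative-control percentile. In untreated MN, 1 oligodendrocyte gene was higher and 3 lower (6.06 to 6.74 against 6.94 to 7.4). There 7 of 12 astrocyte genes were higher with 2 lower (12.33 to 12.43 against 11.93 to 12.17), while Slc1a2 had a mean of 11.39 against 13.26 in WT. All 10 neuronal genes were lower (6.86 to 7.06, against 7.49 and 9.18 in the 2 WT arrays). In the same arrays, all 13 proliferation genes were higher (8.89 to 9.08 against 8.14 to 8.37), all 4 ependymal genes with a cluster higher (7.9 to 8.52 against 6.26 to 6.31) and all 8 mesenchymal genes lower (4.87 to 5.07 against 7.12 to 7.14). Microglial markers exceeded the negative-control percentile in 0 of 6 genes in every group. The part of these markers in the differences of the 10 genes was not tested.

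LY3201 was then compared with untreated cells within each genotype. In NPC, 0 of the 10 genes passed in arrays labelled BERKO and 0 in WT, where 0% and 0.00453% of all genes tested did. At an unadjusted p under 0.05 in limma there were 2 of the 10 genes in arrays labelled BERKO and 1 in WT. Of the 22063 genes tested, 1843 and 2204 were under it. Phgdh was at 12.44 and 12.45 in BERKO NPC with LY3201, against 12.8 and 12.77 untreated (-0.34 ± 0.15, adjusted p = 0.555). In WT it was at 12.39 and 12.04 with LY3201, against 11.95 and 11.93 untreated (0.27 ± 0.15, adjusted p = 0.571). The 2 estimates for Phgdh had opposite signs, but neither passed. The difference between the 2 effects was -0.61 ± 0.21, which did not pass either (adjusted p = 0.186). LY3201 and untreated arrays did not overlap for 5 of the 10 genes in each genotype, so this separation is common here. The 2 WT arrays with LY3201 could be 1 culture. The effects differed between genotypes for 0 of the 10 genes in NPC, where 0.499% of all genes tested did (110 genes, and 0 after quantile normalization). For this difference 3 of the 10 had an unadjusted p under 0.05 in limma, as did 2846 of the 22063 genes tested.

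In MN, 0 genes passed in arrays labelled BERKO and 0 in WT, where 0.344% and 1.83% of all genes tested did. At an unadjusted p under 0.05 in limma there were 1 and 4 of the 10 genes, and 2489 and 3108 of the 22063 genes tested. Phgdh was at 9.66 and 9.61 in BERKO MN with LY3201, against 10.27, 9.88 and 10.19 untreated (-0.47 ± 0.13, adjusted p = 0.139), and without untreated BERKO array 2 it passed (-0.59 ± 0.13, adjusted p = 0.0354). In WT, Mthfd1l was at 6.0 and 6.07 with LY3201, against 5.62 and 5.75 untreated (0.35 ± 0.1, adjusted p = 0.0685), and Shmt1 at 4.66 and 5.11, against 4.47 and 4.55 (0.37 ± 0.11, adjusted p = 0.114). Aldh1l2 was at 7.89 and 7.36 with LY3201, against 8.04 and 7.97 (-0.38 ± 0.14, adjusted p = 0.188). These rest on few arrays: without WT array 1 with LY3201, Shmt1 (0.6 ± 0.11, adjusted p = 0.00581) and Aldh1l2 (-0.64 ± 0.13, adjusted p = 0.0121) passed, and so did the difference of the Shmt1 effects between genotypes (-0.63 ± 0.14, adjusted p = 0.0259). Between genotypes, 0 of the 10 effects in MN differed with all arrays, where 0.63% of all genes tested did. An unadjusted p under 0.05 in limma was found for 2 of the 10 effects, and for 3103 of the 22063 genes tested. The 13 proliferation genes averaged 8.77 to 8.98 in WT MN with LY3201, against 8.14 to 8.37 untreated, and the part of this in the values was not tested.

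In mDPC, the other comparison behind the choice of Aldh1l2, values are again listed without a test. Aldh1l2 was at 9.89 and 9.72 in BERKO mDPC with LY3201, against 10.71 and 10.46 untreated, a difference of -0.78 ± 0.14. Of all genes tested, 0.113% were past the threshold in arrays labelled BERKO and 0.0635% in WT, given for scale alone. In WT it was at 7.21 and 7.4 with LY3201, against 7.25 and 7.07 untreated (0.15 ± 0.14). Shmt2 was at 9.79 and 9.47 with LY3201 in arrays labelled BERKO, against 10.15 and 9.78 untreated (-0.34 ± 0.13), and at 9.08 and 8.95 in WT, against 8.68 and 8.45 (0.45 ± 0.13). Its LY3201 and untreated arrays overlapped in those labelled BERKO and not in WT. Phgdh had -0.14 ± 0.15 in arrays labelled BERKO and 0.27 ± 0.15 in WT, and Psat1 -0.14 ± 0.1 and 0.27 ± 0.1.

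**Figure D4:**
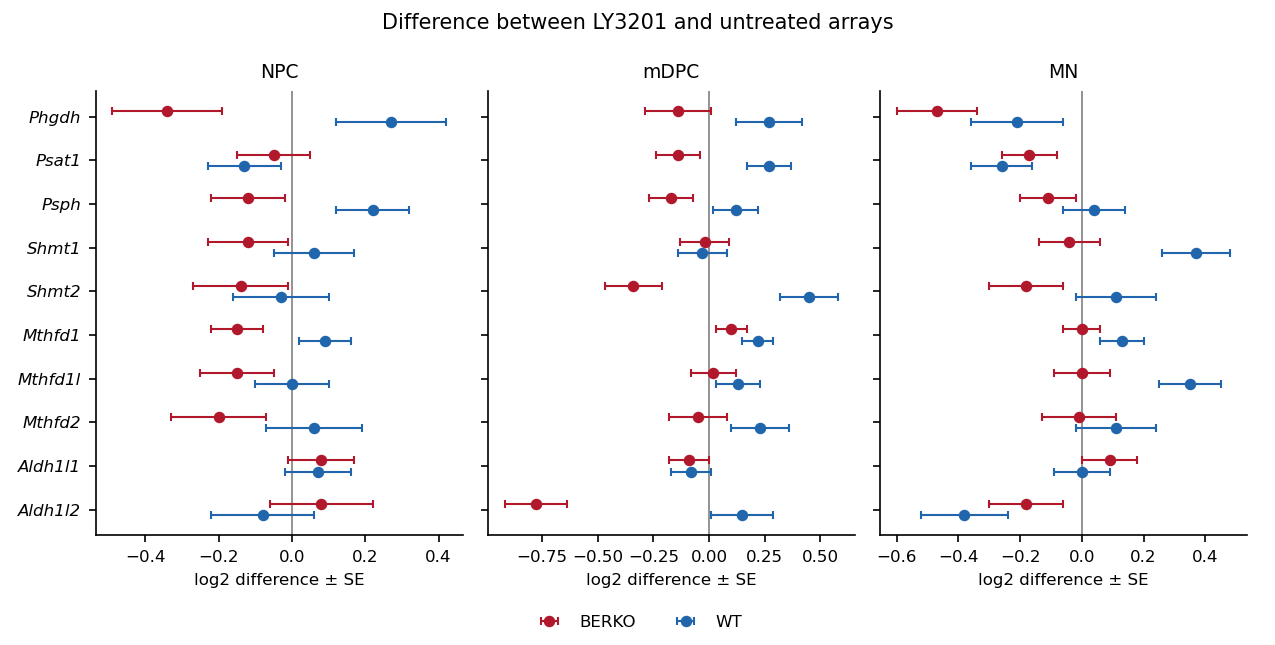
Log2 difference between LY3201 and untreated arrays (horizontal axes, LY3201 minus untreated, each panel on its own scale) for each gene in NPC, mDPC and MN, as point and SE, for arrays labelled BERKO (red) and WT (blue). Aldh1l2 in mDPC labelled BERKO lies at -0.78, and in NPC and MN no gene passed the test.

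Other genes of the pathway were taken from 3 lists of textbook members: 20 tested genes of folate carriers and enzymes, 13 of serine and glycine transport and use, and 25 of the amino acid response driven by Atf4. Of the folate list, 12 genes fell and 6 rose from mESC to NPC in arrays labelled BERKO, and 12 fell and 7 rose in WT, where 35.9% of all genes fell and 27.7% rose in arrays labelled BERKO and 35% fell and 27.9% rose in WT. Gart, of purine synthesis, fell (-4.92 ± 0.09 in arrays labelled BERKO and -5.17 ± 0.09 in WT). Atic, of the same pathway, fell too (-3.75 ± 0.09 and -3.81 ± 0.09). Between genotypes the folate list had 1 lower gene of 20 in mESC (the glycine cleavage enzyme Gldc, -0.63 ± 0.11), 1 higher and 1 lower in NPC (Gldc 0.36 ± 0.11, Amt -0.66 ± 0.14) and 5 higher in MN, among them the methionine synthase Mtr (0.47 ± 0.1). In mDPC, listed without reading, 2 were higher and 2 lower, with Dld at 0.47 ± 0.1, Sardh at 0.44 ± 0.1 and Tyms at -0.4 ± 0.09. Over all genes tested, 1.68% were higher and 2.53% lower in mESC, 10.6% and 5.08% in NPC, 8.51% and 5.32% in mDPC, and 13.5% and 7.31% in MN, and these shares hold as the background of both lists that follow.

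Of the 13 genes of the serine and glycine list, 3 were lower in mESC labelled BERKO, among them the neutral amino acid carrier Slc1a5 (-0.67 ± 0.11). In NPC, 2 were higher and 2 lower: the mitochondrial serine carrier Sfxn1 (0.78 ± 0.08) and the glycine carrier Slc6a9 (0.71 ± 0.11) were higher, the transsulfuration enzyme Cbs (-1.67 ± 0.1) and the glutamine carrier Slc38a1 (-0.74 ± 0.08) lower. In MN, 2 were higher and 4 lower, with the serine carrier Slc1a4 at 0.81 ± 0.13 and Slc38a1 at -0.74 ± 0.08. In mDPC, listed without reading, 5 were higher and 2 lower, with Cbs at -2.03 ± 0.1.

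The amino acid response list had 1 lower gene in mESC, 7 higher and 1 lower in NPC, and 2 higher and 2 lower in MN labelled BERKO. In NPC the cystine carrier Slc7a11 was higher by 1.95 ± 0.22, the large neutral amino acid carrier Slc7a5 by 0.99 ± 0.15 and asparagine synthetase Asns by 0.81 ± 0.13 (limma adjusted p = 4.96e-06, 0.000102 and 0.000223). The median of its 25 genes there was 0.11, against 0.029 over all genes tested. In mDPC, whose arrays served to choose Aldh1l2 and from which nothing is read, 18 of 25 genes were past the threshold and higher and 0 lower, with a median of 0.82 against 0.024 over all genes, and Slc7a11 at 3.37 ± 0.22, Asns at 2.59 ± 0.13 and the cationic amino acid carrier Slc7a1 at 2.03 ± 0.14. With LY3201 19 were higher and 0 lower, where 7.23% of all genes tested were higher and 8.1% lower. For LY3201 against untreated cells in mDPC labelled BERKO, the median of this list was -0.02.

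**Figure D5:**
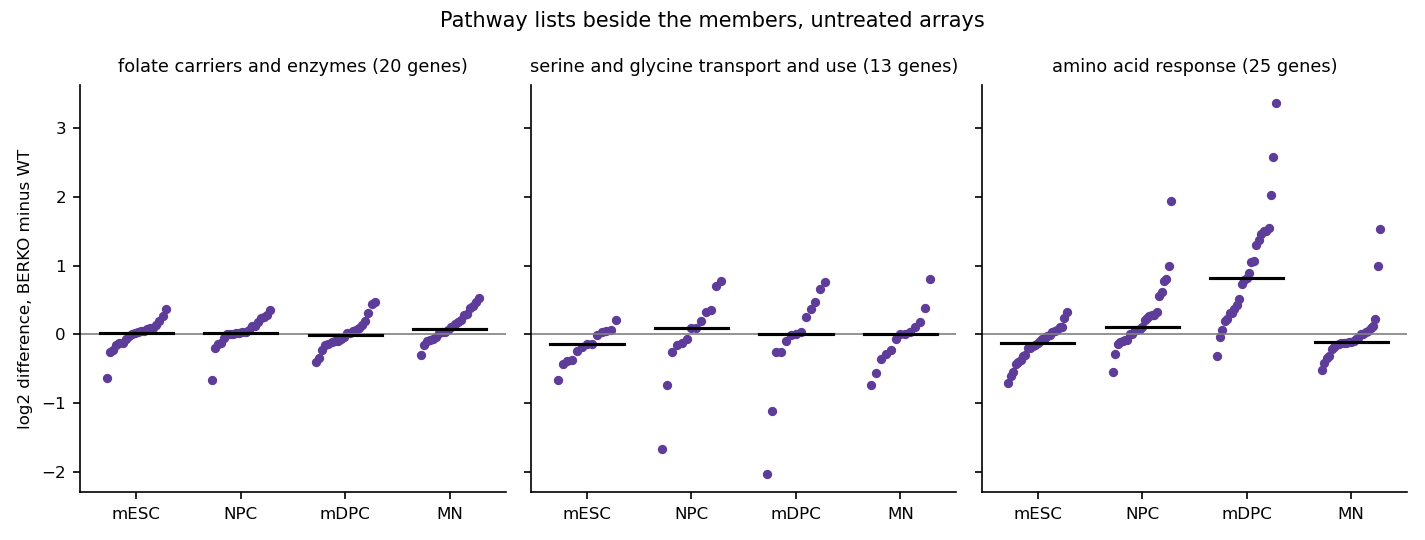
Log2 difference between untreated arrays labelled BERKO and WT (vertical axis, BERKO minus WT) for each tested gene of 3 pathway lists at each stage, sorted within a stage, with a bar at the median. The amino acid response genes have a median of 0.82 in mDPC and of 0.11 in NPC, and the folate list stays between medians of -0.01 and 0.08.

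Across the 14 group means, which share arrays' processing and the large step out of mESC, the genes high in mESC ran together: Pearson r was 0.99 between Shmt1 and Mthfd1, 0.99 between Mthfd1 and Mthfd1l, and 0.98 between Mthfd1l and Mthfd2. Without mESC, over 12 group means, the r of Shmt1 and Mthfd1 was 0.3, while that of Shmt2 and Mthfd1l was 0.87. Phgdh and Psph had 0.91 over 14 means and 0.86 over 12. Among 14758 candidate genes outside the set, the 3 most like Shmt1 were the cyclin Ccne1, the mismatch repair gene Msh6 and the cell cycle factor Mybl2 (r = 0.999 each). Those most like Mthfd2 were the methionyl-tRNA synthetase Mars1 (0.995), Hax1 (0.993) and the cysteinyl-tRNA synthetase Cars (0.99), and those most like Shmt2 were Atxn2l (0.988), the stress-inducible Sesn2 (0.984) and Dync1li1 (0.983). For Phgdh they were Rprd1a (0.988), Emc1 and Pacs1 (0.978 each), for Aldh1l1 Tox (0.972), Grm3 (0.963) and Sdhb (0.961), and for Aldh1l2 Cnrip1 (0.967), Macrod2 (0.966) and Ndrg4 (0.949). By Spearman's rho, none of these 3 genes per member was retained for Phgdh, Shmt1, Shmt2 and Aldh1l2. The r values of Aldh1l2 include the mDPC groups on which it was chosen, so they are a description. Of its like genes, Cnrip1 (4.37 to 6.31) and Macrod2 (4.15 to 4.98) lay under the negative-control percentile in every array.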

How the data were processed

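Total RNA (150 ng per sample, per the labels) was hybridised to 29 arrays. The deposited log2 values came from SST-RMA as run by the authors in Affymetrix Expression Console 1.4, per the labels. The submitters' processing notes also name RMA and the Transcriptome Analysis Console without versions, and the genome build of the clusters is not given in the sources used here. The values were used as deposited. Of 65956 transcript clusters, 30604 had 1 gene symbol in the platform annotation, and 355 genes with several clusters were represented by the cluster with the highest mean.

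Genes entered the test if 2 or more arrays read above that array's median over clusters. limma 3.58.1 in R 4.3.3 fitted 1 model with a mean for each of the 14 groups (15 residual degrees of freedom, prior 3.303), and 25 contrasts were each adjusted by Benjamini-Hochberg over 22063 genes, 2-sided, with a threshold of 0.05. Errors are SE of that model, and the number of arrays limits the precision. The model was tested on simulated data with independent errors, for the contrast of LY3201 in WT NPC. That test cannot address arrays that share a culture or groups of unequal spread. Genes were named by a rule: the 10 members, Esr2, up to 4 genes past the threshold with the largest change per list and comparison, and the 3 genes most like each member by Pearson r over group means. Not every gene that the rule allows is named. The dopaminergic markers, Mki67, Ccna2, Gfap and Slc1a2 of the marker lists, and Mthfd2l were named outside it. The members and lists were chosen with earlier results of these data known. Some genes of the lists are not reported here, and Fpgs and Aars lay on clusters with several symbols. Alternatives were quantile normalization, no filter, a stricter filter (75th percentile), the compared groups alone, a trended robust prior, clusters as features, arrays sharing a title number averaged, and each array left out. Promoters came from RefSeq (GRCm38.p6). Figures were drawn with matplotlib 3.10.9.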

Additional observations from a re-analysis of the deposited data

Results flagged for a closer look

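For 16 results, a test of the difference between genotypes (BERKO step minus WT step, limma adjusted p under 0.05) set the steps between stages apart. From mESC to NPC these were Aldh1l1 (1.23), Shmt2 (1.01), Phgdh (0.9), Mthfd1 (0.56), Psph (0.46) and Psat1 (-0.56). From NPC to mDPC they were Shmt2 (0.85), Mthfd2 (0.66), Psat1 (0.61), Aldh1l1 (0.53), Mthfd1 (-0.56) and Phgdh (-1.15), of which Phgdh and Mthfd1 passed in every alternative. From mDPC to MN they were Mthfd1l (-0.44), Psat1 (-0.71), Shmt2 (-1.14) and Mthfd2 (-1.38), of which Mthfd1l did not pass in every alternative. The differences of these later 2 steps contain the mDPC genotype difference on which the set was chosen, so they are no independent support.

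For 2 results every array of one genotype moved one way and every array of the other the opposite way, and the difference was not tested, because the arrays had served to choose the set. Phgdh moved down with LY3201 in mDPC labelled BERKO and up in WT, with a difference of -0.41. Aldh1l2 moved down from mDPC to MN in arrays labelled BERKO and up in WT, with a difference of -3.75.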

How the results depend on the processing

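Of 194 tested values of the 10 genes, 80 passed, and 58 of these passed in every alternative. The other 22 did not pass in at least 1, and no value that passed changed sign, while 82 changes of sign occurred among values that had not passed. Among the 80 are differences of the steps to and from mDPC, which contain the mDPC genotype difference behind the choice of the set. For those differences a pass is no independent support. The counts of members past the threshold that moved by over 1.5 times were these. With the stricter filter, genotype in mESC gave 1 in place of 0 and LY3201 in WT MN 1 in place of 0. With quantile normalization, genotype gave 2 in mESC (0), 5 in NPC (8) and 5 in MN (3). Fitting only the groups compared, genotype with LY3201 gave 2 in NPC (5) and 2 in MN (4), the NPC to mDPC difference 4 (7, with Aldh1l2 counted) and LY3201 in BERKO mDPC 0 (1). With same-number arrays averaged, genotype in NPC with LY3201 gave 2 (5) and LY3201 in BERKO mDPC 0 (1).

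With each array left out in turn, genotype gave 4 to 6 genes in NPC, 1 to 4 in NPC with LY3201, 3 to 4 in MN and 3 to 5 in MN with LY3201. LY3201 gave 0 to 0 in BERKO mDPC, 0 to 2 in WT MN and 0 to 1 in BERKO MN, and the difference of its effects in MN 0 to 1. The differences of steps gave 4 to 5 (mESC to NPC), 4 to 7 (NPC to mDPC) and 4 to 6 (mDPC to MN). A group left with 1 array is assumed to vary like the others. The cause of these changes was not tested. Over all genes, fitting only the groups compared gave 157 in place of 929 genes for genotype in mESC, 2297 in place of 4584 in MN, 1499, 1729 and 1153 in place of 2287, 3383 and 4322 with LY3201 (NPC, mDPC and MN), and 0 for LY3201 in mDPC and MN of either genotype. Quantile normalization gave 149 higher and 96 lower in place of 343 and 60 genes for LY3201 in WT MN, 9 and 25 in place of 10 and 66 in BERKO MN, and 2 and 7 in place of 8 and 131 for the difference of these effects. The difference of LY3201 effects in NPC, 110 genes, was 53 with no filter, 265 with the stricter filter, and 0 after quantile normalization and with same-number arrays averaged, and that in MN, 139 genes, was 91 with no filter, 247 with the stricter filter and 0 with the compared groups alone. For the difference of the mDPC to MN steps that fit gave 1617 in place of 2749. Averaging same-number arrays gave 335 for mESC and 1310 for NPC with LY3201. Levels under the negative-control percentile limit what can be said of Psph throughout and of Shmt1, Mthfd1l and Mthfd2 after mESC. No paired analysis was possible because the labels give no shared replicate numbers. By Spearman's rho, 0 of the 3 most like genes were the same for 8 members, 1 for Aldh1l1 and 2 for Mthfd2.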

Other observations

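Transsulfuration and the serine carriers, which draw on the serine pool, changed with stage beside the 10 genes. From mESC to NPC the cystathionine gamma-lyase Cth fell by 6.87 (SE 0.09) in arrays labelled BERKO and by 7.33 (SE 0.09) in WT (limma adjusted p = 1.82e-21 and 7.55e-22), and Slc1a5 fell by 3.61 (SE 0.11) and 4.02 (SE 0.11), each to NPC means under the negative-control percentile (Cth 6.01 and 5.92, Slc1a5 5.3 and 5.55). Cbs, the other transsulfuration enzyme of the list, named after its values were seen, went the other way, with means of 8.43 in NPC, against 7.1 in mESC, in arrays labelled BERKO, and of 10.1 in NPC, against 7.28 in mESC, in WT. The serine carrier Slc1a4 rose by 4.37 ± 0.14 in arrays labelled BERKO and by 3.66 ± 0.14 in WT, and the glycine carrier Slc6a9 by 4.11 ± 0.11 and 3.26 ± 0.11, from mESC means under that percentile (Slc1a4 7.03 and 7.41, Slc6a9 6.12 and 6.25).

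In MN, LY3201 left 1 gene past the threshold in these pathway lists (20, 13 and 25 tested genes) in each genotype. Of all genes tested, 1.83% passed in WT and 0.344% in arrays labelled BERKO, so these counts are not read as a response of the lists. The thymidylate synthase Tyms was higher in WT MN with LY3201 by 0.46 ± 0.09 (6.63 against 6.17, adjusted p = 0.0166), and the stress factor Atf3 in BERKO MN with LY3201 by 0.59 ± 0.12 (6.74 against 6.15, adjusted p = 0.0334). All these means lay under the negative-control percentile of their arrays, and with only these groups fitted, 0 genes passed for LY3201 in MN of either genotype.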
